A study of Homo sapiens with 16 samples.

Results

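The comparison described here is that of nutlin plus GSK2830371 against GSK2830371 alone in TPC1 cells, which gives the effect of nutlin in the presence of the PPM1D inhibitor. It rests on 4 libraries of the 16 in the series, namely the 2 libraries of the combination and the 2 of GSK2830371 alone, chosen by line and treatment and not by any measured value. TPC1 is an established human papillary thyroid carcinoma line, and all cells were kept in culture medium with serum. The GSK2830371 group received 25 µM GSK2830371 for 24 h, and the combination group received 10 µM Nutlin-3a together with 25 µM GSK2830371 for the same time. Beside them stand the TPC1 groups given vehicle (0.2% DMSO) or 10 µM Nutlin-3a alone, and the K1 groups, from another established line of papillary thyroid carcinoma, given the same agents. Polyadenylated RNA was sequenced with strand kept, and the values are reads counted per gene. Each group holds 2 libraries. The study says of its experiments in general that replicates were biological and made independently, whereas the labels of these libraries name no separate cultures, so that all p values measure the spread between these samples, which may in part be technical.

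The tumour suppressor p53 is a transcription factor that is kept low by the ubiquitin ligase MDM2, which binds it and sends it to degradation. Nutlin occupies the p53 pocket of MDM2 and so frees p53 to bind its target genes, among them *MDM2* itself, the cell cycle inhibitor *CDKN1A* and the BH3-only gene *BBC3*. PPM1D is a phosphatase, itself encoded by a p53 target gene, that removes activating phosphates from p53 and from kinases of the DNA damage response, and GSK2830371 inhibits it. A separate pathway, the integrated stress response, acts through kinases that phosphorylate eIF2alpha, which lowers general translation and raises translation of the transcription factor ATF4.

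The 4 libraries hold 31578138 and 76648552 counts for GSK2830371 and 36878168 and 62853375 counts for the combination, in each case for the columns numbered 1 and 3. The libraries numbered 3 were the deeper ones in both groups. Levels are given in CPM, a gene's count relative to the total of its library after scaling by the trimmed mean of M values (TMM), with replicate 1 before replicate 3. Adjusted p values are those of the quasi-likelihood test of edgeR with Benjamini-Hochberg adjustment over all genes tested, and a gene was called when this value was under 0.05 and its fold change above 1.5. "Rose" and "fell" are used of called genes only. Errors given as ± are standard errors of the log2 fold change. As a check of the line, the thyroid factor gene *PAX8* stood at 361 and 354 CPM under GSK2830371 and at 335 and 291 CPM in the combination, and *FOXE1* at 22.7 to 25.8 CPM in the 4 libraries. *HHEX*, another thyroid factor gene, fell by 1.27 on the log2 scale, and the 10 thyroid markers summed to 394.8 and 385.1 CPM with GSK2830371 and to 366.1 and 322.3 CPM in the combination. The thyroid factor gene *NKX2-1* and the thyrotropin receptor gene *TSHR* had 0 counts in all 4. The 5 leukocyte markers summed to between 0.0497 and 0.377 CPM and the 4 endothelial ones to between 0.0909 and 0.332 CPM, with *PTPRC* and *CD3E* at 0 counts in all 4 libraries. *TG*, which encodes thyroglobulin, the thyroid hormone precursor, was at 0.394 and 0.201 CPM under GSK2830371 and at 5.09 and 3.66 CPM in the combination. The 6 epithelial markers summed to 677.4 and 746.3 CPM with GSK2830371 and to 426.4 and 499.2 CPM in the combination, and the 6 fibroblast markers to 4.79 and 5.21 CPM and to 2.13 and 3.26 CPM. The part of these shifts in the results was not tested.

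With GSK2830371 present, 38.5% of the genes tested in TPC1 cells passed both thresholds for a change with nutlin. Of 15273 genes tested, 2971 rose (19.5%) and 2907 fell (19%). The median log2 fold change over all genes tested was -0.00316. Among the genes that rose, 1836 did so by more than 2-fold, 791 by more than 4-fold and 261 by more than 16-fold. The decreases included 1592 genes beyond 2-fold, 574 beyond 4-fold and 121 beyond 16-fold. RNA totals per cell were not measured, so these are changes in each gene's share of the RNA, and in bulk RNA a loss of cells in one state cannot be told apart from less RNA per cell.

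Canonical p53 targets rose strongly. *CDKN1A* (chromosome 6, 36644237 to 36655114, GRCh37), which encodes the inhibitor p21 of cyclin-dependent kinases, stood at 159.5 and 176 CPM under GSK2830371 and at 11365 and 13227 CPM in the combination. The groups did not overlap, and the log2 fold change was 6.19 ± 0.14 (adjusted p = 5.02e-09). *MDM2* (chromosome 12, 69201957 to 69239324) went from 149 and 151 CPM to 4848 and 4892 CPM, a log2 fold change of 5.02 ± 0.11. *PPM1D* itself (chromosome 17, 58677554 to 58743641), whose protein GSK2830371 inhibits, rose from 9.06 and 9.87 CPM to 47.8 and 50.2 CPM (log2 fold change 2.37 ± 0.09, adjusted p = 4.49e-08). *BBC3* (chromosome 19, 47724079 to 47736023), which encodes the pro-apoptotic protein PUMA, had 8.76 and 9.7 CPM with GSK2830371 and 98.2 and 116 CPM with both drugs, a rise of 3.53 ± 0.12 on the log2 scale.

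**Figure D1:**
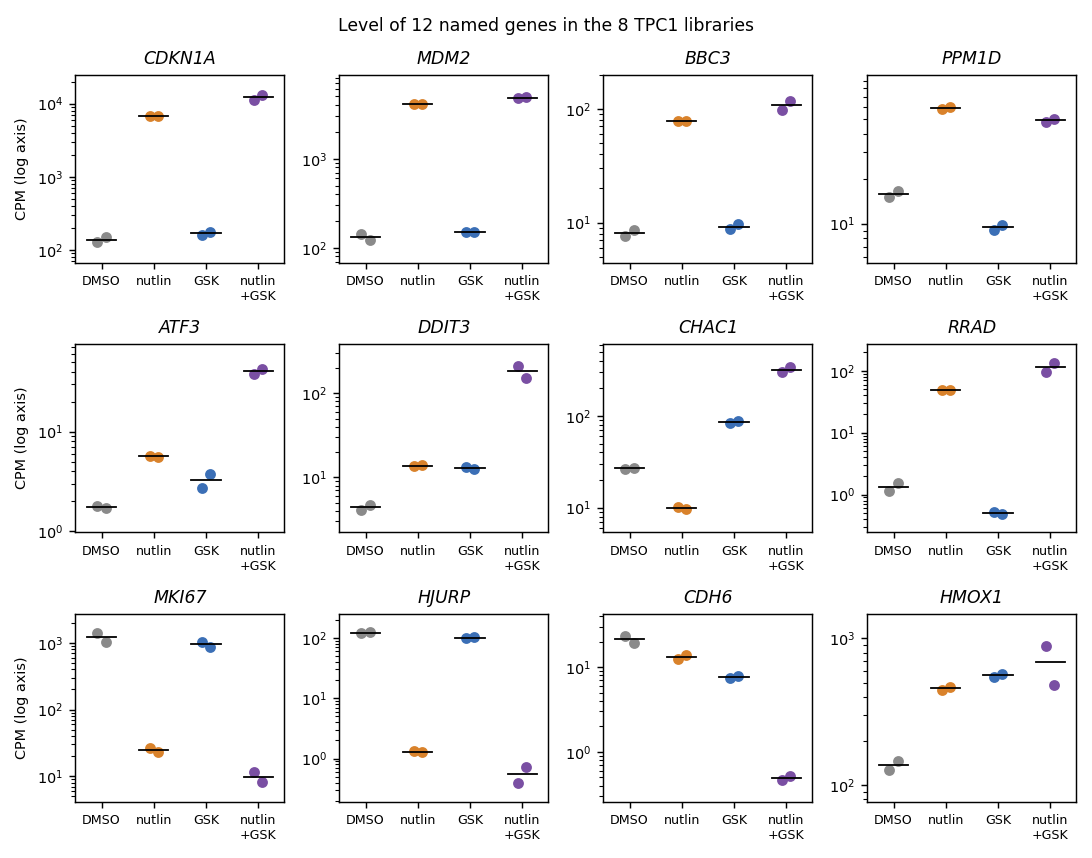
Level in CPM, on a log axis, of 12 named genes in the 8 TPC1 libraries, grouped as DMSO, nutlin, GSK2830371 (GSK) and both drugs. Points are libraries, replicate 1 left of replicate 3, and the line is the mean of 2 libraries. *CDKN1A* reaches 11365 and 13227 CPM with both drugs against 159.5 and 176 CPM with GSK2830371, while *HMOX1* has 891 and 481 CPM with both drugs, on either side of its levels with GSK2830371.

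Listed by role, p53 targets of every branch rose with few exceptions. Of 11 feedback regulators of p53 tested, 9 rose (81.8%) and 0 fell, beside 19.5% and 19% of all genes tested. Their median log2 fold change was 2.37 against -0.00 over all genes tested. Among those not called was *MDM4*, the gene of the MDM2-related repressor, with a log2 fold change of 0.48. *TRIM22*, an interferon- and p53-responsive gene, rose from 0.242 and 0.226 CPM to 13.2 and 16.3 CPM, and *TP73*, which encodes a p53 relative, from 0.0303 and 0.0628 CPM to 2.43 and 1.42 CPM. All 11 arrest genes rose, with a median of 2.51. *BTG2*, an antiproliferative gene, was at 20.2 and 23.7 CPM with GSK2830371 and at 923 and 1007 CPM in the combination (log2 fold change 5.45 ± 0.11).

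Among the 16 apoptosis targets tested, 15 rose (93.8%) and 0 fell, beside 19.5% and 19% of all genes tested. Their median log2 fold change was 1.71. *TP53I3*, whose product is a quinone oxidoreductase, showed the largest increase of the list, from 32.7 and 36.7 CPM to 1018 and 1159 CPM (4.97 ± 0.12). *TNFRSF10C*, a decoy receptor of the death ligand TRAIL, was the exception, with a log2 fold change of -1.32 that was not called. Of 17 targets in repair and metabolism, 16 rose (94.1%) with a median of 2.98, and *SCO2*, an assembly factor of cytochrome c oxidase, was the exception at -0.44. *PLTP*, the phospholipid transfer protein gene, rose from 24.9 and 27.8 CPM to 761 and 878 CPM. *GLS2*, the gene of a mitochondrial glutaminase, had 1 count over the 2 GSK2830371 libraries and 187 over those of the combination, a ratio of 218 with an exact 95% counting interval from 38.7 to 8662. That interval covers counting error only.

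The genes of the BCL2 family and of apoptosis inhibitors did not move together. Of 16 tested, 6 rose (37.5%) and 2 fell (12.5%), beside 19.5% and 19% of all genes tested. The median log2 fold change was 0.33. Genes whose products protect from apoptosis were among those that rose. *CFLAR*, which encodes the caspase-8 regulator cFLIP, went from 47.3 and 44.6 CPM to 128 and 126 CPM, and *BCL2L1*, which encodes BCL-XL, from 200.4 and 204 CPM to 496 and 492 CPM. *BCL2* fell from 4.15 and 3.09 CPM to 1.83 and 1.46 CPM, a log2 fold change of -1.14 ± 0.21 (adjusted p = 0.00124).

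The genes of at least 5 CPM with the largest increases of all were nearly silent without nutlin. For increases and decreases alike, only the higher of the compared groups had to meet this limit. Ranking by fold change under such a limit favours genes with low starting levels. The near silence of these genes therefore follows in part from how they were chosen and is not a separate result. *TREM2*, a receptor gene of myeloid cells, and the late cornified envelope genes *LCE1F* and *LCE1C* had 0 counts in both GSK2830371 libraries. *TREM2* stood at 18.4 and 25.7 CPM in the combination, at least 861-fold higher when compared with a floor of 3 counts over the GSK2830371 group. On the same floor *LCE1F*, at 18 and 16 CPM, was at least 629-fold higher and *LCE1C*, at 6.17 and 8 CPM, at least 275-fold higher. These last belong to a family of similar genes, and whether reads were split between its members was not tested. *LAMC3*, a laminin chain gene, had 1 count against 708, a ratio of 826 with a counting interval from 148 to 32667. *UNC13A*, which encodes a regulator of synaptic vesicle release, rose from 0.182 and 0.188 CPM to 168 and 139 CPM, and *CEACAM1*, a cell adhesion gene, from 0.212 and 0.163 CPM to 104 and 109.9 CPM. *FAM13C* reached 16.4 and 17.2 CPM from 0.121 and 0.0126 CPM, and *KIAA1751* 42.5 and 33.3 CPM from 0.0303 and 0.0377 CPM.

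The 8 largest decreases among genes of at least 5 CPM were in *FAM111B* and 7 genes of cell division. *FAM111B*, whose product is a protease, fell from 23.7 and 27.3 CPM to 0.166 and 0.116 CPM (log2 fold change -7.54 ± 0.18, adjusted p = 5.29e-09). *HJURP*, the chaperone of the centromeric histone CENP-A, went from 99.7 and 102 CPM to 0.387 and 0.729 CPM, and *E2F2*, an E2F transcription factor of the S phase programme, from 19.7 and 18.8 CPM to 0.194 and 0.0828 CPM. The remaining ones were *CCNE2*, the cyclin E2 gene, *KIF18B* and *GTSE1*, whose products act on microtubules, *MKI67*, the gene of the proliferation marker Ki-67, and *NEK2*, the gene of a centrosomal kinase. Their log2 fold changes lay between -6.93 and -6.24. *MKI67* stood at 1028 and 873 CPM with GSK2830371 and at 11.6 and 8.07 CPM with both drugs (-6.61 ± 0.23).

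By list, all 35 mitosis genes tested fell, beside 19% of all genes tested. Their median log2 fold change was -4.53, the lowest median of the 21 lists. The smallest decrease was that of *PTTG1*, the securin gene (-1.23), named after its values were seen. *CENPA*, the centromeric histone gene, went from 22.9 and 29.2 CPM to 0.443 and 0.298 CPM. Among 34 replication genes and E2F targets, 33 fell (97.1%) and 1 rose (2.94%), beside 19% and 19.5% of all genes tested, with a median of -2.96. The riser was *PCNA*, which encodes the sliding clamp of DNA polymerases and is also known as a p53 target. It was at 145 and 162 CPM with GSK2830371 and at 314 and 385 CPM in the combination (1.19 ± 0.12, adjusted p = 2.35e-05). Of 17 recombination and Fanconi genes, 16 fell (94.1%) and 0 rose, with a median of -3.21. *EXO1*, an exonuclease gene, fell from 52 and 54.9 CPM to 1.63 and 2.05 CPM, and *BARD1*, the partner of *BRCA1*, from 16.2 and 16 CPM to 1.05 and 0.762 CPM. *PALB2*, the exception, was at 19.6 and 18.4 CPM against 17.7 and 17.1 CPM.

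The list of pocket proteins, E2F factors, cyclins and their inhibitors was mixed. Of its 19 genes 3 rose (15.8%) and 7 fell (36.8%), beside 19.5% and 19% of all genes tested. The inhibitor genes *CDKN1C* and *CDKN2B* rose, from 24.9 and 27.7 CPM to 257 and 199 CPM and from 8.12 and 7.75 CPM to 58.5 and 64.2 CPM. In the other direction, *CDKN2C*, another inhibitor gene, fell from 30 and 34.4 CPM to 2.99 and 3.96 CPM, and *RBL1*, the gene of the pocket protein p107, from 35.2 and 33.2 CPM to 6.64 and 5.78 CPM.

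**Figure D2:**
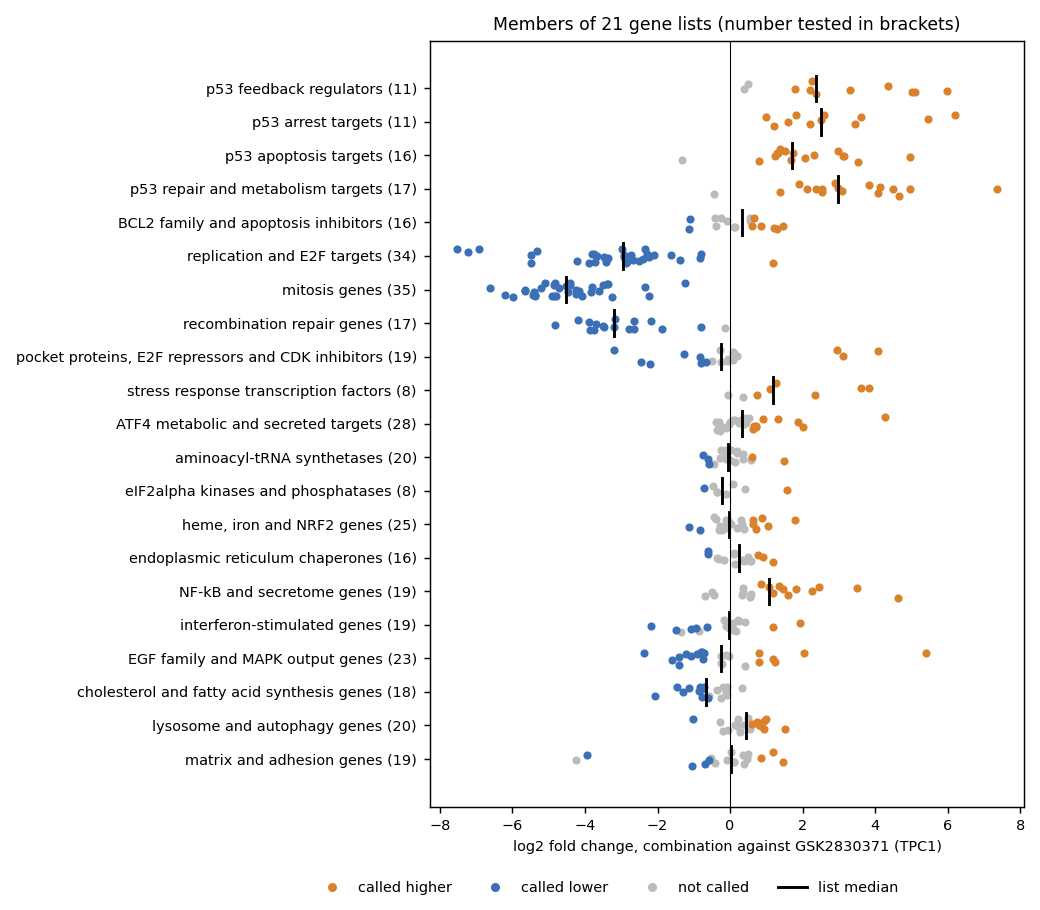
Log2 fold change of the combination against GSK2830371 in TPC1 (horizontal axis) for each tested member of 21 gene lists (rows), coloured by whether the gene was called higher, called lower or not called, with the list median as a bar. All 35 mitosis genes lie below 0 with a median of -4.53, and the 4 p53 lists have medians from 1.71 to 2.98.

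Promoters were read as the 250 bases before and 50 after each RefSeq start (build GRCh38.p14), and motifs were searched on both strands. The CHR element, TTTGAA, which is bound in cell cycle genes by the DREAM and MuvB complexes, was in 19 of the 29 mitosis promoters found for the 35 genes (65.5%), against 15.4% of all 27305 promoters in the table. CCAAT boxes, CCAAT, bound by NF-Y, were in 72.4% of mitosis promoters, in 64.3% of replication promoters and in 35.7% of all. An E2F site, TTTCCCGC or TTTGGCGC, was in 18 of 28 replication promoters (64.3%), in 1 of the 29 mitosis promoters and in 2.31% of all promoters. The CHR was in 1 of the 28 replication promoters. A match to these letters is a description and not a measured binding site. The lists were written from general knowledge, the replication one to include E2F targets. These shares therefore describe the lists and not the response to nutlin. Promoters were matched for 11750 of the 15273 genes tested (76.9%), under the 80% needed to compare called with other genes, so that comparison is void.

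The promoters of 5 mitosis genes are shown to let the arrangement be seen, those of *MKI67*, *HJURP*, *GTSE1* and *CENPA* and that of *CCNB2*, the cyclin B2 gene, which was added after its values were seen and fell by 3.38 on the log2 scale. Each run ends at the base before the start, and capitals mark the CHR (read as TTCAAA on the other strand) and the CCAAT boxes (ATTGG on the other strand). In *MKI67* a CHR and a CCAAT box share a base.
*MKI67*, chr10:128126424-128126543, minus strand: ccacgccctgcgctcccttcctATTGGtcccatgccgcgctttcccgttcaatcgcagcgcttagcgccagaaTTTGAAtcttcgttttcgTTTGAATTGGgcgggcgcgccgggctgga
*HJURP*, chr2:233854536-233854655, minus strand: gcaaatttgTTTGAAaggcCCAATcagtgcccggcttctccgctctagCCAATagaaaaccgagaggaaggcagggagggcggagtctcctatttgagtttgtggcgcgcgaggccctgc
*GTSE1*, chr22:46296750-46296869, plus strand: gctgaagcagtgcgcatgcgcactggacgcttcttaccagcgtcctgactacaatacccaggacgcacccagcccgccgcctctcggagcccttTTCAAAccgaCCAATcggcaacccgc
*CENPA*, chr2:26785916-26786055, plus strand: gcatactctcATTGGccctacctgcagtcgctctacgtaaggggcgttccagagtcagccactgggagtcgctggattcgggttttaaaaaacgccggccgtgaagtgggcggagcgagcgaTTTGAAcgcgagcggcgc
*CCNB2*, chr15:59105016-59105145, plus strand: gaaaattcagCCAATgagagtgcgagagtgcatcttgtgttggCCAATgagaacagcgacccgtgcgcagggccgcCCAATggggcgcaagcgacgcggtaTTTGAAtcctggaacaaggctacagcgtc
For the replication genes, the window of *E2F2* is shown with that of *E2F1*, which was likewise chosen after its values were seen and fell by 3.45. Capitals mark the E2F site.
*E2F2*, chr1:23531234-23531313, minus strand: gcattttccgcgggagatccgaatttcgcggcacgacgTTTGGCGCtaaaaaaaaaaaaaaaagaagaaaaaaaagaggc
*E2F1*, chr20:33686386-33686465, minus strand: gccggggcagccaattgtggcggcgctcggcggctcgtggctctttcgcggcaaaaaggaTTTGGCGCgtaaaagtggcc

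Stress response genes of the ATF4 pathway rose in part. Of 8 transcription factor genes of this response tested, 6 rose (75%) and 0 fell, beside 19.5% and 19% of all genes tested. Their median log2 fold change was 1.18. *DDIT3*, which encodes the pro-apoptotic factor CHOP (chromosome 12, 57910371 to 57915520), had 13.2 and 12.4 CPM with GSK2830371 and 210.0 and 154 CPM in the combination (3.83 ± 0.15, adjusted p = 6.98e-08). *ATF3* (chromosome 1, 212738676 to 212794119), a factor gene induced by many stresses, went from 2.7 and 3.76 CPM to 37.6 and 42.8 CPM (3.60 ± 0.14). The *ATF4* transcript (chromosome 22, 39915700 to 39918688) was at 786 and 846 CPM and at 1007 and 1074 CPM, a log2 fold change of 0.35 ± 0.09, below the fold threshold. ATF4 is regulated mainly through its translation, which these libraries do not measure.

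Of 28 metabolic and secreted ATF4 targets tested, 9 rose (32.1%) and 0 fell, beside 19.5% and 19% of all genes tested. The median log2 fold change of the list was 0.33. *GDF15*, a secreted stress cytokine gene that is also a p53 target, rose from 243 and 260.0 CPM to 4693 and 5001 CPM, and *ADM2*, a peptide hormone gene, from 28.5 and 28.2 CPM to 124 and 104 CPM. *CHAC1* (chromosome 15, 41245160 to 41248710), which encodes a glutathione-degrading enzyme, stood at 84.7 and 89 CPM with GSK2830371 and at 299 and 339.8 CPM in the combination (1.88 ± 0.09, adjusted p = 1.62e-07). Of 20 aminoacyl-tRNA synthetase genes, 2 rose (10%) and 3 fell (15%), both below the 19.5% and 19% of all genes tested. *SARS*, for seryl-tRNA synthetase, rose from 256 and 272 CPM to 719 and 761 CPM, and *IARS* from 827 and 794 CPM to 1251 and 1215 CPM, whereas *FARSB* and *FARSA*, the 2 subunit genes of phenylalanyl-tRNA synthetase, had log2 fold changes of -0.76 and -0.62. The *IARS* call was lost with library size alone as the scaling (0.50) and without GSK2830371 replicate 3 (0.58), and that of *FARSA* without the same library (-0.53) and without combination replicate 1 (-0.52).

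None of the 4 eIF2alpha kinase genes was called. *EIF2AK1*, the gene of the heme-regulated kinase HRI, was at 162 and 176 CPM with GSK2830371 and at 115 and 127 CPM in the combination, a log2 fold change of -0.48 ± 0.09. *EIF2AK2* and *EIF2AK3*, for PKR and PERK, had log2 fold changes of -0.35 and 0.09, and *EIF2AK4*, for GCN2, one of 0.41. Of the 2 regulatory subunits that direct dephosphorylation of eIF2alpha, *PPP1R15A*, for GADD34, rose from 63.3 and 68.5 CPM to 228 and 161 CPM (1.56 ± 0.15), and *PPP1R15B* had a log2 fold change of -0.10. *EIF2S1*, which encodes eIF2alpha, fell from 112 and 118 CPM to 65.2 and 75.3 CPM.

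The 2 combination libraries disagreed on *HMOX1*, the gene of heme oxygenase. It was at 549 and 574 CPM with GSK2830371 and at 891 and 481 CPM in the combination, one above and one below that group. The log2 fold change of 0.29 ± 0.22 was not called (adjusted p = 0.298). Under DMSO *HMOX1* was lower, at 128 and 146 CPM, and under nutlin alone it stood at 448 and 467 CPM. Of 25 genes of heme, iron and NRF2 function tested, 6 rose (24%) and 2 fell (8%), beside 19.5% and 19% of all genes tested. *SLC48A1*, a heme transporter gene, rose from 70.4 and 71.4 CPM to 218 and 268 CPM, and *SLC40A1*, for the iron exporter ferroportin, from 1.64 and 1.28 CPM to 2.52 and 3.26 CPM. *FLVCR1*, a heme exporter gene, fell from 31.7 and 29.7 CPM to 13.4 and 14.7 CPM. Of 16 chaperone genes of the endoplasmic reticulum, 3 rose (18.8%) and 2 fell (12.5%), beside 19.5% and 19% of all genes tested. *HYOU1*, a chaperone gene, rose by 1.17 and *DNAJB9*, a cochaperone gene, by 0.91 on the log2 scale. The decreases of *MANF* (-0.62) and *SDF2L1* (-0.60), 2 smaller proteins of that compartment, were each lost without combination replicate 1 (-0.53 and -0.55). *MANF* was also lost without GSK2830371 replicate 3 (-0.48), and *SDF2L1* without GSK2830371 replicate 1 (-0.56) and with the size factors of DESeq2 (-0.57).

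Secreted and inflammatory genes rose more often than they fell. Of 19 NF-kB and secretome genes tested, 11 rose (57.9%) and 0 fell, beside 19.5% and 19% of all genes tested. Their median log2 fold change was 1.09. *IL6*, the cytokine gene, went from 8.76 and 10.2 CPM to 106 and 111 CPM (3.51 ± 0.13). Of 19 interferon-stimulated genes, 2 rose (10.5%) and 5 fell (26.3%), beside 19.5% and 19% of all genes tested. *ISG15*, for a ubiquitin-like modifier, rose from 9.15 and 8.91 CPM to 32.1 and 35.8 CPM, and *IRF1*, for an interferon regulatory factor, from 15.9 and 19 CPM to 38.7 and 41.7 CPM. *OAS3*, an antiviral synthetase gene, fell from 55.6 and 48.8 CPM to 20.6 and 16.4 CPM, and *IFIT1* from 4.55 and 4.71 CPM to 2.21 and 2.17 CPM.

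Among 23 genes of the EGF family and of MAPK output, 6 rose (26.1%) and 11 fell (47.8%), beside 19.5% and 19% of all genes tested. *EREG*, for the EGF receptor ligand epiregulin, rose from 23 and 19.1 CPM to 95.2 and 77.2 CPM, and *AREG*, for amphiregulin, from 0.121 and 0.138 CPM to 5.67 and 5.8 CPM. *FOSL1*, an AP-1 factor gene, fell from 588 and 609 CPM to 191 and 202 CPM, and *FOS* from 1.39 and 0.992 CPM to 0.332 and 0.149 CPM.

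The cholesterol and fatty acid list moved one way, with 10 of 18 genes lower (55.6%) and 0 higher, beside 19% and 19.5% of all genes tested. Its median log2 fold change was -0.67. *SCD*, for stearoyl-CoA desaturase, fell from 528 and 489 CPM to 141 and 102 CPM (-2.06 ± 0.14). Of 20 lysosome and autophagy genes, 8 rose (40%) and 1 fell (5%), beside 19.5% and 19% of all genes tested. *MAP1LC3B*, for the autophagosome protein LC3B, rose from 110.5 and 121 CPM to 363 and 303 CPM and *CTSD*, for cathepsin D, from 748 and 761 CPM to 1511 and 1458 CPM, while *GLA*, a lysosomal galactosidase gene, fell from 29.1 and 31.1 CPM to 14.6 and 15.1 CPM. Of 19 matrix and adhesion genes, 3 rose (15.8%) and 4 fell (21.1%), near the shares of all genes tested. *CYR61* and *COL5A1*, a matricellular and a collagen gene, rose by 1.45 and 1.20, and the cadherin genes *CDH6* and *CDH2* fell by 3.94 and 1.06 on the log2 scale. *CDH6* went from 7.43 and 7.84 CPM to 0.47 and 0.513 CPM.

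Beside *CDKN1A*, the called genes with the highest levels in each direction were as follows. *EEF1A1* and *EEF2*, for elongation factors, rose from 9569 and 10370 CPM to 17682 and 21326 CPM and from 4079 and 4268 CPM to 8690 and 9256 CPM. *EEF1A1* has many processed pseudogenes that can share its reads. *HSP90AA1*, a chaperone gene, *ENO1*, for the glycolytic enzyme enolase, and *VIM*, for vimentin, fell, with log2 fold changes of -0.86, -1.10 and -0.68. The 5 genes with the most counts took 3.07% and 3.36% of the GSK2830371 libraries and 4.94% and 5.51% of those of the combination.

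The question of whether PPM1D inhibition changes the response to nutlin was addressed by setting this effect beside that of nutlin against DMSO, which shares no library with it. Without GSK2830371 nutlin raised 2671 genes (17.5% of those tested) and lowered 2752 (18%). Of these, 2006 rose in both comparisons, which is 67.5% of those that rose under GSK2830371 and 75.1% of those that rose without it. The same count for decreases was 2096 genes, or 72.1% and 76.2%. Across genes the log2 fold changes had a Pearson correlation of 0.851 and a Spearman correlation of 0.802, as a description over 15273 genes that are not independent replicates. The difference of the 2 nutlin effects, the interaction, was called in 965 genes, 431 of them positive (2.82% of those tested) and 534 negative (3.5%). A total of 965 genes rose under GSK2830371 and were not called higher without it, yet the interaction was positive and called in 133 of them, and for 811 such decreases it was negative and called in 182. With a block for the replicate number the interaction was called in 714 genes higher and 859 lower. The interaction counts of the main fit, which holds no block, also depended on single libraries. They were 152 positive and 193 negative without nutlin replicate 3, 162 and 207 without nutlin replicate 1, 176 and 227 without GSK2830371 replicate 1, and 186 and 228 without GSK2830371 replicate 3.

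**Figure D3:**
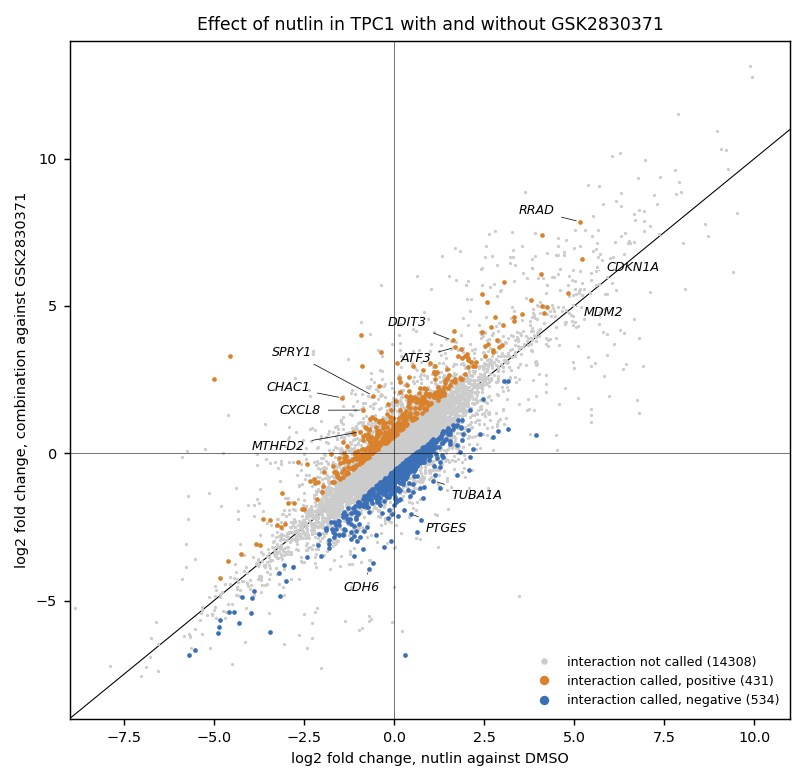
Log2 fold change of nutlin against DMSO (horizontal axis) and of the combination against GSK2830371 (vertical axis) for the 15273 genes tested in TPC1, with the line of equal effect. Genes with a called interaction are coloured, 431 positive in orange and 534 negative in blue, and the named ones include *CHAC1*, above 0 on the vertical axis (1.88) and below it on the horizontal (-1.44).

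Among p53 targets the interaction was called in some members of each list, though not in *MDM2*, *BBC3* or *CDKN1A*. It was 0.06 for *MDM2* (adjusted p = 0.815), 0.26 for *BBC3* (0.327) and 0.59 for *CDKN1A* (0.0587). For *PPM1D* it was 0.46, with an adjusted p of 0.0475 but a size below the fold threshold. Over the 4 lists of p53 targets, the interaction was positive and called in 1 of 11 feedback, 5 of 11 arrest, 3 of 16 apoptosis and 2 of 17 repair and metabolism genes, and negative and called in 0. The share of positive calls was 45.5% of the arrest genes and 18.8% of the apoptosis genes, beside 2.82% of all genes tested.

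The genes with the clearest difference included members of the ATF4 list. *CHAC1* had 26.5 and 27.4 CPM under DMSO and 10.3 and 9.69 CPM under nutlin, so nutlin lowered it without GSK2830371 (-1.44) and raised it with GSK2830371 (1.88), and the interaction was 3.31 (adjusted p = 1.26e-05). Of the 28 genes of this list 14 (50%) had a positive called interaction and 0 a negative one, against 2.82% and 3.5% of all genes tested. No interaction count by list, here, for the p53 targets or for the mitosis genes, was recomputed with other settings or with libraries left out. Without GSK2830371 nutlin lowered 9 of the 28 (32.1%) and raised 3 (10.7%), beside 18% and 17.5% of all genes tested. The median log2 fold change of the 28 was then -0.40. Among the synthetase genes the interaction was positive and called in 7 of 20 (35%). Nutlin alone lowered 7 of these 20 (35%) and raised 1 (5%), beside 18% and 17.5% of all genes tested. *DDIT3* (2.21) and *ATF3* (1.91) had called interactions with the same direction in both settings. *DDIT3* stood at 4.08 and 4.75 CPM under DMSO and at 13.5 and 13.9 CPM under nutlin. That of *ATF4* was 0.77 (adjusted p = 0.00835). It was not called without GSK2830371 replicate 1 (0.72, adjusted p = 0.0511) or without nutlin replicate 1 (0.74, adjusted p = 0.0583).

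The other largest positive interactions among called genes of at least 5 CPM were those of *AREG* (2.97) and *RRAD* (2.70). *RRAD*, a small GTPase gene of the RGK family (chromosome 16, 66955588 to 66959438), was at 1.34 ± 0.293 CPM under DMSO (SD, n = 2), 48.8 and 49.7 CPM under nutlin, 0.515 and 0.49 CPM under GSK2830371 and 96 and 136 CPM under both. The *AREG* interaction was not called without DMSO replicate 3 (2.48, adjusted p = 0.0571). The 3 largest negative ones were those of *CDH6* (-3.25), *GPRIN3* (-3.15) and *PTGES*, a prostaglandin E synthase gene (-2.52). *CDH6* was at 23.4 and 19.3 CPM under DMSO and at 12.6 and 13.8 CPM under nutlin. *PTGES* had 3.95 and 4.17 CPM under DMSO, 5.55 and 5.7 CPM under nutlin, 7 and 6.67 CPM under GSK2830371 and 1.22 and 1.97 CPM under both. *GPRIN3* replicates were far apart, at 6.97 and 4.16 CPM under GSK2830371 and 0.692 and 0.215 CPM under both drugs, and its interaction was lost without GSK2830371 replicate 1, without either nutlin library or without combination replicate 3, with values from -4.05 to -2.37 over all alternatives.

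In 18 genes nutlin was called in opposite directions with and without GSK2830371. These were picked out by their values, and all 18 had a called interaction, which calls in opposite directions make likely in advance. Some decreases without GSK2830371 rest on few counts, from at most 0.107 CPM under DMSO to 0 CPM in both nutlin libraries. In 13 of the 18 genes nutlin raised the gene with GSK2830371 present and lowered it without. Named after their values were seen, they include, beside *CHAC1*, the transcription factor gene *CEBPG* (50.5 and 46.8 to 79.8 and 82.1 CPM with GSK2830371, and 34.9 and 35.8 to 15.7 and 16.6 CPM without it), the folate enzyme gene *MTHFD2* (log2 fold changes 0.73 and -0.94), the GTP-binding protein gene *GTPBP2* (0.91 and -0.80), the cystine transporter gene *SLC7A11* (0.67 and -1.10), the chemokine gene *CXCL8* (1.47 and -0.86) and *SPRY1*, an inhibitor of receptor tyrosine kinase signalling (1.96 and -0.59). The *SLC7A11* increase was lost without GSK2830371 replicate 3 (0.53), without combination replicate 1 (0.57) and with library size alone (0.56), and its interaction without GSK2830371 replicate 3 (1.63) or nutlin replicate 3 (1.63). The 5 genes with the reverse pattern included *TUBA1A*, a tubulin gene, at 62 and 70.1 CPM under GSK2830371, 29.2 and 40.1 CPM under both, 46.1 and 55.7 CPM under DMSO and 105 and 113 CPM under nutlin. *CGNL1*, a junction gene, had log2 fold changes of -1.13 with GSK2830371 and 0.82 without it, and *KCNJ16*, a potassium channel gene, of -1.52 and 0.82.

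A few further members of the lists are given because of their values. *PMAIP1*, for the BH3-only protein NOXA, was at 27.1 and 25.3 CPM under DMSO and 23.9 and 24.3 CPM under nutlin, and rose from 33.1 and 32 CPM to 67.7 and 85.6 CPM with GSK2830371 (interaction 1.36). *TNFRSF10D*, a TRAIL decoy receptor gene, had an interaction of 1.10. *CCND1*, the cyclin D1 gene, fell from 666 and 663 CPM to 278 and 276 CPM, against 636 and 599 CPM under DMSO and 716 and 673 CPM under nutlin, an interaction of -1.43 (adjusted p = 0.000344). *JUN* likewise had an interaction of -1.27. *KIF20A*, a mitotic kinesin gene, was the 1 of the 35 mitosis genes (2.86%) whose interaction was positive and called (1.41). In 8 others of the list (22.9%) it was negative and called. Over all genes tested these shares were 2.82% and 3.5%. *KIF20A* fell to 15.8 and 13.1 CPM under nutlin and to 25.3 and 28.1 CPM under both drugs. The interaction of *HSPA5*, the gene of the chaperone BiP, was 1.16.

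In K1 the same contrast was smaller. There 1002 genes rose (6.3%) and 1073 fell (6.75%) of 15900 tested. Over the 14509 genes tested in both lines, 586 rose in both, which is 63.8% of those of K1 and 21.3% of those of TPC1, and 821 fell in both, or 81.2% and 29.4%. A direct test of the difference, in a fit of all 16 libraries, called 2106 genes with the higher log2 fold change in TPC1 (12.6%) and 1920 with the lower (11.5%) of 16738 tested. *CDKN1A* was at 232 and 229 CPM in K1 under GSK2830371 and at 1529 and 1569.5 CPM in the combination, and the difference between the lines was 3.47 on the log2 scale (adjusted p = 1.46e-10). It was 1.73 for *MDM2*, 1.77 for *BBC3*, 1.16 for *PPM1D* and 2.88 for *DDIT3*, in each case larger in TPC1. For *ATF3* it was 1.81, which was not called without K1 GSK2830371 replicate 1 (1.28, adjusted p = 0.0695).

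The median log2 fold change in K1 was 1.23, 1.12, 0.88 and 1.06 for the feedback, arrest, apoptosis and repair lists of p53 targets and -1.71 for the mitosis list. In 34 of the 35 mitosis genes the line difference was negative and called, the decrease being larger in TPC1. *NEK2* (-4.84), *HJURP* (-4.63) and *KIF18B* (-4.56) had the most negative differences among named genes. For *UNC13A* the difference was 9.09, with 5.12 and 6.12 CPM in K1 under GSK2830371 and 8.3 and 8.58 CPM in the combination. For the ATF4 list the medians were 0.33 in TPC1 and 0.28 in K1. A positive line difference was called in 2 of its genes (7.14%) and a negative one in 4 (14.3%). Over all genes tested in TPC1 these shares were 13.6% and 12.5%. *CHAC1* rose in K1 from 13 and 16.9 CPM to 64.7 and 74.9 CPM. For 13 of the 19 NF-kB and secretome genes the line difference was positive and called, with a K1 median of 0.12.

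**Figure D4:**
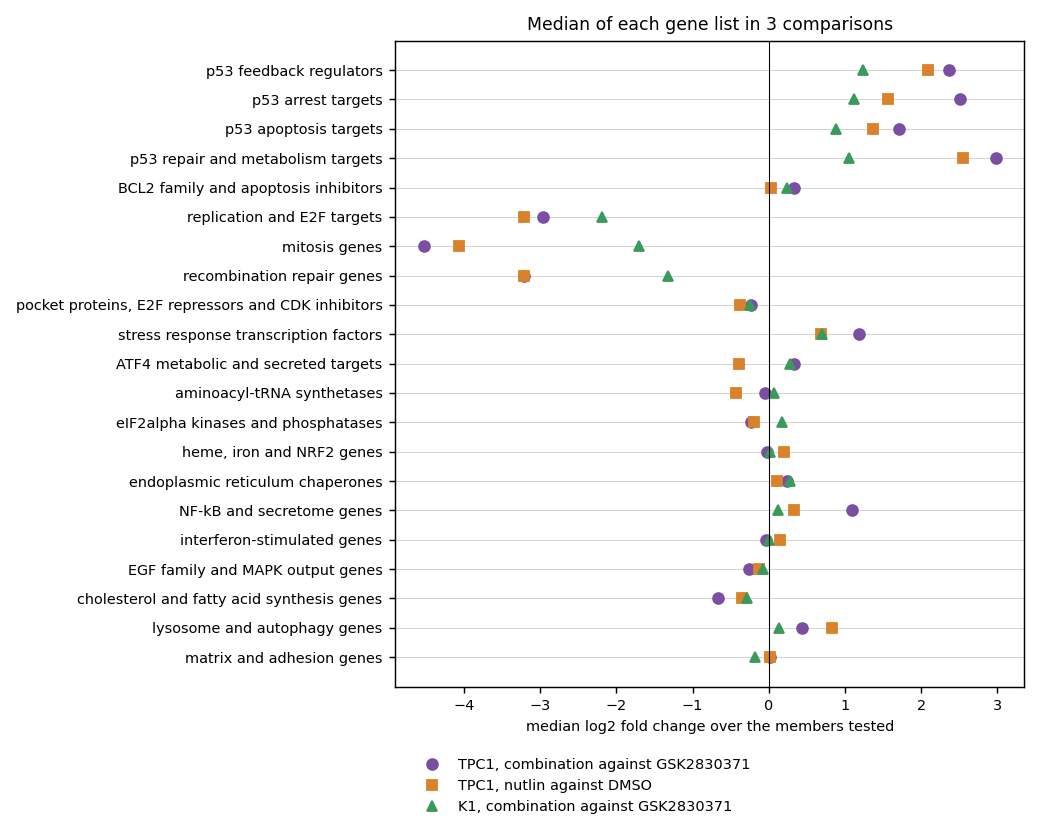
Median log2 fold change over the tested members of 21 gene lists (rows) in 3 comparisons, the combination against GSK2830371 in TPC1 (circles), nutlin against DMSO in TPC1 (squares) and the combination against GSK2830371 in K1 (triangles). The ATF4 target list has medians of 0.33, -0.40 and 0.28 in that order, and the mitosis list of -4.53, -4.07 and -1.71.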

How the data were processed

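Polyadenylated, strand-specific RNA libraries of TPC1 and K1 cells were read single-end. The authors aligned the reads to GRCh37/hg19 with TopHat2 2.0.13, removed low-quality alignments with SAMtools and deposited raw counts per gene made by HTSeq 0.6.1 with the reverse-strand setting. The file holds 25369 genes, of which 4539 had no count. TPC1 columns are numbered 1 and 3 and the labels 1 and 2, so columns numbered 3 were matched to their group only. TPC1 libraries held 30789887 to 76648552 counts, and intervals cover counting error only.

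The 8 TPC1 libraries were fitted together in edgeR 4.0.16 (R 4.3.3, limma 3.58.1) with TMM scaling and the quasi-likelihood test, on genes above 0.1 CPM in at least 2 libraries. The line difference came from a fit of all 16 libraries. DESeq2 1.42.0 was an alternative, beside other scalings, filters, thresholds, a replicate block and each library left out. Scripts were tested on simulated data. The comparison, members and gene lists were chosen with earlier results of these data known. Named genes were those the study names, the 8 largest changes each way, the 2 largest called changes each way per list, the 3 most abundant called genes each way, and the 3 largest interactions and line differences each way. Some of these genes are not reported here. A further set of genes, marked in the text where it matters, was named after its values were seen: *PMAIP1*, *TNFRSF10D*, *KIF20A*, *CEBPG*, *MTHFD2*, *ASNS*, *SLC7A11*, *CCND1*, *JUN*, *CXCL8*, *SPRY1*, *TUBA1A*, *CGNL1*, *KCNJ16*, *HSPA5*, *XBP1*, *GTPBP2*, *E2F1*, *CCNB2*, *TG*, *MDM4*, *TNFRSF10C*, *SCO2*, *PALB2* and *PTTG1*.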

Additional observations from a re-analysis of the deposited data

Results flagged for a closer look

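The nutlin effect with GSK2830371 differed from that without it, by the interaction test, in 31 named genes in the positive direction, on the log2 scale. In the stress, amino acid and chaperone genes the difference was 3.31 for *CHAC1*, 2.21 for *DDIT3*, 1.91 for *ATF3*, 1.86 for *CEBPG*, 1.77 for *SLC7A11*, 1.71 for *GTPBP2*, 1.67 for *MTHFD2*, 1.23 for *XBP1*, 1.16 for *HSPA5*, 1.12 for *ADM2*, 1.11 for *ASNS*, 0.775 for *ATF4*, 0.696 for *IARS*, 0.614 for *HYOU1* and 0.601 for *SARS*. In secreted, signalling and interferon genes it was 2.97 for *AREG*, 2.7 for *RRAD*, 2.55 for *SPRY1*, 2.33 for *CXCL8*, 1.34 for *EREG*, 0.793 for *ISG15*, 0.751 for *IL6* and 0.651 for *IRF1*. In p53 targets and the remaining genes it was 1.41 for *KIF20A*, 1.36 for *PMAIP1*, 1.1 for *TNFRSF10D*, 1.08 for *MAP1LC3B*, 0.709 for *PLTP*, 0.633 for *PCNA*, 0.623 for *BTG2* and 0.591 for *COL5A1*.

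The difference was negative in 12 named genes. It was -3.25 for *CDH6*, -3.15 for *GPRIN3*, -2.52 for *PTGES*, -2.33 for *KCNJ16*, -2.02 for *TUBA1A*, -1.95 for *CGNL1*, -1.45 for *HMOX1*, -1.43 for *CCND1*, -1.27 for *JUN*, -1.15 for *KIF18B*, -1.14 for *GTSE1* and -0.681 for *GLA*. Over all genes named by rule or after their values were seen, 46 interactions were called, and 28 held in each of the 14 alternatives run. Others that were not called in the main fit became called in some alternatives. There were 10 of these with the replicate block, 10 with the test of DESeq2, 9 with no filter and 3 with library size alone. The call was lost in 9 alternatives for *COL5A1*, in 7 for *PCNA*, *SARS*, *HYOU1* and *GLA*, in 6 for *BTG2*, *IRF1*, *KIF18B* and *IL6*, in 5 for *HMOX1* and *ISG15*, in 4 for *GPRIN3*, in 3 for *PLTP*, in 2 for *ATF4* and *SLC7A11* and in 1 for *IARS*, *XBP1* and *AREG*. Each of these genes lost the call when at least 1 single library was left out. Over all alternatives the *HMOX1* interaction ranged from -1.96 to -1.07 and that of *KIF18B* from -1.59 to -0.67.

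The effect of adding nutlin to GSK2830371 differed between TPC1 and K1, by the test of the difference, in 80 named genes, 66 of them in every alternative. Values are given for 11, from the genes the study names and those with the largest differences. The effect was higher in TPC1 by 9.09 for *UNC13A*, 3.47 for *CDKN1A*, 2.88 for *DDIT3*, 1.81 for *ATF3*, 1.77 for *BBC3*, 1.73 for *MDM2*, 1.16 for *PPM1D* and 1.01 for *PPP1R15A*, and it was lower, at -4.56 for *KIF18B*, -4.63 for *HJURP* and -4.84 for *NEK2*. The difference was also called for *TREM2* and *KIAA1751*, whose fitted values are not given because a group held 3 counts or fewer. Groups of 2 libraries allow no test for a library that stands apart from its group.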

How the results depend on the processing

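Of the named genes, 102 were called for the combination against GSK2830371 and 96 of them in every alternative, and no called result reversed. The log2 fold changes of 2 genes that were not called changed sign over the alternatives, that of *HMOX1* from -0.22 to 0.67 and that of *EIF2AK3* from -0.01 to 0.15. With library size alone as the scaling, the median log2 fold change over all genes moved from -0.00316 to -0.106, the share of called interactions that were positive from 44.7% to 32.4%, and that of line differences from 52.3% to 34.3%, with 2892 genes lower in TPC1. The same scaling gave 1 synthetase gene higher and 2 NF-kB and secretome genes lower. With no filter 1 NF-kB gene was lower, and with the size factors of DESeq2 1 chaperone gene was lower. Without a fold threshold 4372 genes rose and 4566 fell, and above 2-fold 1836 and 1592. DESeq2 called 2833 and 2657.

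With each library left out in turn, 2610 to 3018 genes rose and 2746 to 2913 fell, and the interaction was called in 152 to 490 genes higher and 193 to 657 lower. The lone library of a group was then assumed to vary like the other groups.

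With the replicate block the interaction was called in 714 genes higher and 859 lower, and 1 NF-kB gene was lower. Same-numbered TPC1 libraries deviated together (correlations 0.495 to 0.697 over 12308 genes). There are 2 numbers and no label for a shared culture or day, so what these libraries share was not tested. The main fit leaves this shared deviation in its error.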
